A study of Mus musculus with 16 samples.

Results

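The mitochondrial DNA and RNA expression machinery is described here through 10 nuclear genes: Tfam, Tfb1m, Tfb2m, Polrmt, Polg, Polg2, Tefm, Lrpprc, Slirp and Ppargc1b. They were taken by name, as the rows of the count table whose Ensembl identifiers carry these mouse symbols, and they make up 10 of its 53801 genes. All 10 passed the filter on low counts, which left 13774 genes to test. RNA was sequenced from a mouse acute myeloid leukemia cell line that carries the MLL-AF9 fusion and grew with interleukin 3 (IL-3) and stem cell factor (SCF). The MCT4-KO cells carried guide RNA against the lactate carrier MCT4 (gene Slc16a3) and the control cells carried a non-targeting guide. Both had an inducible Cas9 that was switched on with 4-hydroxytamoxifen (4-OHT), so the controls share the drug and the nuclease. Each population was cultured at 20% or 2% oxygen, with 4 libraries in each of the 4 groups and 16 in all, and the labels describe a single leukemia line. Whether the 4 libraries of a group are separate cultures is not stated, and the p-values reflect only how far these libraries differ, part of which can be technical.

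Mitochondria keep a small circular genome of their own, which encodes core subunits of the respiratory chain and the RNAs needed to translate them. Every protein that copies, transcribes and protects that genome and its transcripts is encoded in the nucleus and imported. TFAM, TFB2M and the RNA polymerase POLRMT start transcription, TEFM keeps the polymerase on its template, POLG and POLG2 form the replicative DNA polymerase, and the LRPPRC-SLIRP complex binds and stabilises the messenger RNAs. PGC-1β, the product of Ppargc1b, is a nuclear coactivator that works with factors such as NRF1 and ERRα on genes of this kind.

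The genes are spread over the mouse genome (GRCm38, GENCODE vM21), all annotated as protein coding. Tfam spans chr10:71225464-71238280 and Polrmt chr10:79736123-79746581, both on the minus strand. Tfb1m lies at chr17:3519256-3557781 and Lrpprc at chr17:84705247-84790789, again on the minus strand. Tefm occupies chr11:80136678-80142175 and Polg2 chr11:106768253-106779537 on the minus strand. Tfb2m (chr1:179528055-179546267), Polg (chr7:79446231-79466362) and Ppargc1b are also on the minus strand, and Slirp (chr12:87443896-87452206) is the plus-strand member.

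RefSeq promoter windows (GRCm38.p6, 250 bases before to 50 after the start site) were at hand for 9 of the 10 genes, all but Ppargc1b. The windows were searched on both strands for CCGGAAG, the core that ETS factors such as GABP bind, the NRF1 motif, CACGTG, an E-box, and ACGTG, the core of the hypoxia response element, which is also contained in CACGTG. Each ETS core is shown with 11 flanking bases on either side, 5′ to 3′ on the gene's strand, because it was the motif most of the 9 windows held. Capitals mark the core, read as CTTCCGG where it lies on the other strand.
Tfam: cctgccgcggaCCGGAAGtccgggcttcc
Polrmt: ccctaagagcgCTTCCGGcagtcgcagaa
Polg: gaggacctcacCCGGAAGtccctctgcac
Polg2: cgggtgacgctCTTCCGGgggcgtggtct
Tefm: agcacacgaaaCCGGAAGttgaggaggaa
Slirp at -146: aagcggaaaagCTTCCGGaaagcatcctc
Slirp at -48: aacagtttggcCCGGAAGcagaactcgaa
Slirp at -11: tctggcaggttCTTCCGGggtcacgactc
The stretches lie at chr10:71238074-71238102 (Tfam, minus), chr10:79746607-79746635 (Polrmt, minus), chr7:79466294-79466322 (Polg, minus), chr11:106779549-106779577 (Polg2, minus) and chr11:80142145-80142173 (Tefm, minus). Those of Slirp, on the plus strand, are chr12:87443739-87443767, chr12:87443837-87443865 and chr12:87443874-87443902. Relative to the RefSeq start site the Tfam core began at base -47, that of Polrmt at -43, that of Polg at -38, that of Polg2 at -29 and that of Tefm at -9, while the cores of Slirp began at -146, -48 and -11.

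The ETS core was thus in 6 of 9 windows, against 17.6% of the 12649 windows of tested genes and 8.86% of all 32851. The NRF1 motif was in the Polrmt window alone, as a pair of overlapping matches across the start site, against 9.96% of windows of tested genes. ACGTG was in the Polg2 window alone, at base -7, against 25.4%, and CACGTG was in none of the 9, against 9.96%. The windows of Tfb1m, Tfb2m and Lrpprc held none of the 4 motifs, which says only that these letters are not in those windows. A match is a stretch of letters and no evidence of binding.

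The libraries held 21192179 to 28871459 estimated counts. Across them the members ran from 85.03 estimated counts for Polg2 in its lowest library to 3221 for Lrpprc in its highest, so Polg2, Ppargc1b and Tefm carry the widest relative errors. Slc16a3, the targeted gene, had less RNA in the MCT4-KO libraries at 20% oxygen (log2 fold change -1.39 ± 0.076, SE) and at 2% (-1.15 ± 0.072), and the genotypes did not overlap at either level. Levels are in CPM (counts scaled to a common library total after TMM correction). Slc16a3 averaged 79.9 CPM at 20% oxygen and 365 CPM at 2% in MCT4-KO libraries, against 210 and 812 CPM in control libraries. The data hold no measure of MCT4 protein. All 10 myeloid leukemia markers were expressed, with summed levels of 2142 to 2349 CPM, whereas Csf1r averaged 0.966 CPM. Single markers moved in both directions (edgeR adjusted p under 0.05). At 2% oxygen 8 were lower and 2 higher in control cells (log2 -0.89 to 1.25), beside 39.6% and 38.7% of all tested genes. In MCT4-KO cells 5 were lower and 2 higher, beside 38.7% and 37.7%. For the knockout at 20% oxygen 3 were lower and 2 higher (-0.23 to 1.16), beside 4.8% and 4.96%. At 2% it was 3 and 3, beside 19.1% and 19.4%. Their part in the results was not tested. Of 12 markers of other cell types 2 passed the filter, Pecam1 and Epcam. Cd3e, Cdh5 and Col1a2 were at 0 in every library. Leaving out Pecam1, the other-cell list summed to 0.187 to 0.478 CPM at 20% oxygen and to 1.12 to 1.75 CPM at 2%. With Pecam1 it summed to 179.2 to 186.9 CPM and to 261.5 to 302.7 CPM. Its part in the oxygen results was not tested. Replicate 4 of control at 2% oxygen stood apart, with a chi-square per gene of 8.61 to 12.9 against its group mates, which differed from each other by 2.55 to 3.38. The libraries at 20% oxygen were also uneven, at 3.53 to 9.25 in control (highest for replicates 1 and 3) and 2.49 to 7.72 in MCT4-KO (highest for replicates 1 and 3), against 1.77 to 2.81 in MCT4-KO at 2%.

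Levels of different genes were compared per kilobase of union exon. In control cells at 20% oxygen Lrpprc (13.5 CPM per kb) and Tfam (12.6) led the order and their library ranges overlapped. Tefm followed at 10.8, Slirp at 10.5 and Tfb2m at 10.2 CPM per kb, with Tefm overlapping Slirp and Slirp overlapping Tfb2m. Polg came next at 9.30, Polrmt at 8.20 and Tfb1m at 5.05 CPM per kb, each apart from its neighbours. Ppargc1b (1.87 CPM per kb) and Polg2 (1.57) were lowest and overlapped.

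At 2% oxygen the control order was led by Slirp (12.9 CPM per kb) and Tfam (10.8), which overlapped, followed by Polg (7.82). Tefm at 6.55, Tfb2m at 6.41, Lrpprc at 6.40 and Polrmt at 5.78 CPM per kb could not be separated from the neighbour in the order. Lrpprc thus moved from first to sixth place in control cells, and in MCT4-KO cells at 2% oxygen it was at 7.75 CPM per kb, behind only Slirp (14.1) and Tfam (12.02). The order depends on the length used: per kilobase of the longest CCDS transcript, Lrpprc was at 26.1 CPM per kb in control cells at 20% oxygen and Tfam at 13.4, and at 2% oxygen Lrpprc, at 12.4, was behind only Slirp at 14.8.

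**Figure D1:**
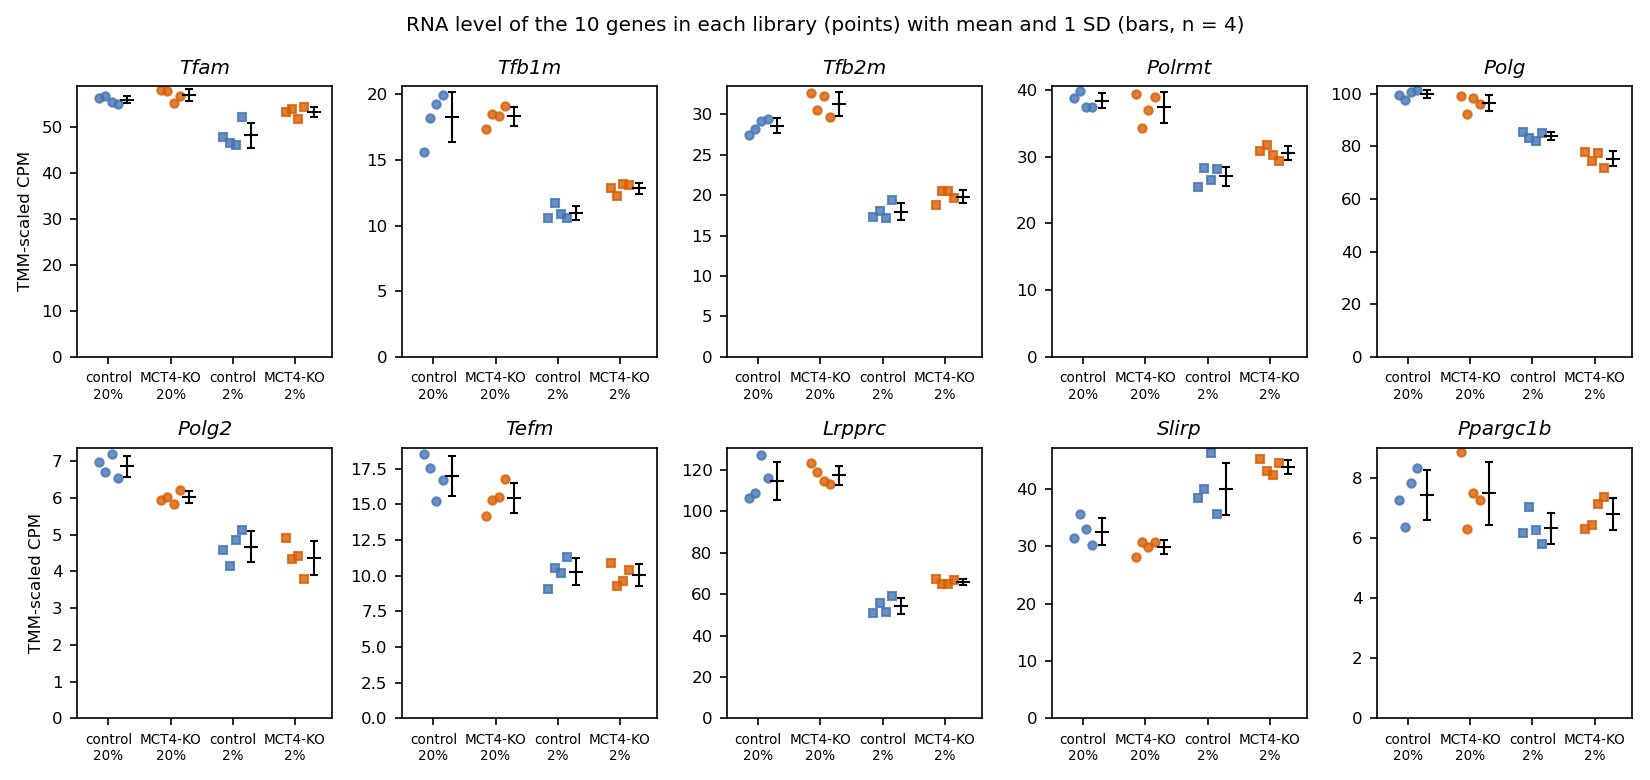
TMM-scaled CPM (y axis, from 0, own scale per gene) of each of the 10 genes in each library, by genotype and oxygen (x axis). Points are libraries, and the bars beside them give the mean and 1 SD (n = 4). Lrpprc is at 106.5 to 127.0 CPM in control libraries at 20% oxygen and at 51.0 to 59.3 CPM at 2%, while Slirp in MCT4-KO libraries is at 28.2 to 30.7 CPM at 20% oxygen and at 42.5 to 45.2 CPM at 2%.

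Low oxygen moved 9 of the 10 genes down in control cells and 8 of 10 down in MCT4-KO cells, and Slirp rose in both. In control cells the falls ranged from -0.22 for Tfam to -1.07 for Lrpprc on the log2 scale, and the median of the 10 was -0.53 beside -0.017 over all genes tested. In MCT4-KO cells the median was -0.41 beside -0.014. Calls were common, since 78.3% of tested genes passed edgeR's quasi-likelihood test at an adjusted p under 0.05 in control cells and 76.4% in MCT4-KO cells. Those lower made up 39.6% and 38.7%, and those higher 38.7% and 37.7%. Groups without any overlap were found for 70.2% of genes in control cells (34.9% higher, 35.3% lower) and 72.4% in MCT4-KO cells (35.9% higher, 36.5% lower). Among the 10 they were found for 8 (all lower) and 9 (8 lower, and Slirp higher). The number of genes called is therefore near the background, and the share of falls among them is what stands beside it. In bulk RNA, fewer cells of a type and less RNA per cell cannot be told apart.

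TFAM packages the mitochondrial genome and bends its promoters. In control cells Tfam was at 56.3, 56.7, 55.4 and 55.1 CPM at 20% oxygen and at 47.8, 46.5, 46.1 and 52.1 CPM at 2%. The MCT4-KO values were 58.1, 57.9, 55.3 and 56.7 CPM at 20% and 53.4, 54.0, 51.8 and 54.3 CPM at 2%. Every library at 2% oxygen was below every library at 20% of its genotype, and replicate 4 of control at 2% was the highest of its group. Tfam fell by 0.22 ± 0.038 in control cells (edgeR adjusted p = 2.92e-05). In MCT4-KO cells it fell by 0.095 ± 0.037 (edgeR adjusted p = 0.0254), a call lost in the DESeq2 Wald test (adjusted p = 0.0586), with no count filter (edgeR adjusted p = 0.102), and without MCT4-KO replicate 1 (0.0570) or 2 (0.0609) at 20% oxygen or replicate 3 at 2% (0.0867). The fall of Tfam was the smallest of the 9 in control cells.

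TFB2M melts promoter DNA together with the polymerase. Tfb2m went from 27.5, 28.2, 29.2 and 29.5 CPM in control cells at 20% oxygen to 17.3, 18.01, 17.2 and 19.4 CPM at 2%. In MCT4-KO cells it went from 32.6, 30.5, 32.3 and 29.6 to 18.7, 20.5, 20.5 and 19.7 CPM. The oxygen groups were far apart in both genotypes. The log2 fold changes were -0.67 ± 0.051 (edgeR adjusted p = 1.39e-10) and -0.66 ± 0.049 (1.41e-10).

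TFB1M, a paralog of TFB2M, is the methyltransferase that modifies adenines of the small mitochondrial ribosomal RNA. Tfb1m was at 15.6, 18.2, 19.2 and 19.9 CPM in control cells at 20% oxygen and at 10.6, 11.7, 10.9 and 10.6 CPM at 2%. MCT4-KO libraries had 17.3, 18.5, 18.4 and 19.1 CPM at 20% and 12.9, 12.3, 13.2 and 13.1 CPM at 2%. No library at 2% oxygen reached a library at 20%. Tfb1m fell by 0.74 ± 0.068 in control cells and by 0.51 ± 0.065 in MCT4-KO cells (edgeR adjusted p = 3.44e-09 and 4.60e-07). It shares 142 bases (3.93% of its union exons) with Tiam2 on the opposite strand, which also fell (-1.28 and -0.88), so strand leaves its value uncertain. Tiam2 was low, with an average log2 CPM of 0.18, and its part in the Tfb1m value was not tested.

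POLRMT is the RNA polymerase of mitochondria and also makes primers for DNA replication. Polrmt was at 38.8, 39.9, 37.4 and 37.6 CPM in control cells at 20% oxygen and at 25.4, 28.3, 26.5 and 28.1 CPM at 2%. Its MCT4-KO libraries held 39.5, 34.4, 37.0 and 38.9 CPM at 20% and 30.9, 31.7, 30.3 and 29.4 CPM at 2%. The oxygen groups did not overlap. Polrmt fell by 0.51 ± 0.049 and by 0.29 ± 0.047 (edgeR adjusted p = 6.40e-09 and 1.25e-05).

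TEFM is the elongation factor that binds POLRMT. Tefm was at 18.5, 17.6, 15.2 and 16.7 CPM in control cells at 20% oxygen and at 9.08, 10.5, 10.2 and 11.3 CPM at 2%. In MCT4-KO cells the values were 14.2, 15.3, 15.6 and 16.8 CPM and 10.9, 9.27, 9.61 and 10.4 CPM. All libraries at 2% oxygen were below those at 20%. Tefm fell by 0.73 ± 0.076 and by 0.63 ± 0.076 (edgeR adjusted p = 2.25e-08 and 2.42e-07).

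POLG is the catalytic subunit of the mitochondrial DNA polymerase. Polg was at 99.6, 97.8, 100.7 and 101.4 CPM in control cells at 20% oxygen and at 85.4, 83.1, 82.1 and 85.2 CPM at 2%. The MCT4-KO libraries had 99.0, 92.4, 98.5 and 96.1 CPM at 20% and 77.8, 74.4, 77.6 and 71.7 CPM at 2%. These groups were tight and separate. The changes were -0.25 ± 0.034 and -0.36 ± 0.034 (edgeR adjusted p = 8.97e-07 and 5.83e-09). The gene shares 921 bases (8.57% of its union exons) with Fanci on the opposite strand, and Fanci moved the other way, by 0.47 and 0.45, so its value is uncertain while the strand setting of the counting is not given.

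POLG2 is the accessory subunit that keeps POLG on its template. Polg2 was at 6.98, 6.71, 7.20 and 6.53 CPM in control cells at 20% oxygen and at 4.58, 4.14, 4.86 and 5.12 CPM at 2%. The MCT4-KO libraries were at 5.95, 6.02, 5.84 and 6.23 CPM and at 4.92, 4.33, 4.42 and 3.80 CPM. Even at this low level the oxygen groups did not overlap. Polg2 fell by 0.55 ± 0.084 and by 0.46 ± 0.085 (edgeR adjusted p = 5.12e-06 and 5.89e-05). Polg2 shares 132 bases (3.03% of its union exons) with Milr1 on the opposite strand. Milr1 fell as well (-0.76 and -0.94), so the value of Polg2 is uncertain without the strand setting.

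LRPPRC, a pentatricopeptide repeat protein, binds mitochondrial messenger RNAs and keeps them from decay. Lrpprc was at 106.5, 108.7, 127.0 and 116.0 CPM in control cells at 20% oxygen and at 51.0, 55.9, 51.4 and 59.3 CPM at 2%. In MCT4-KO cells it was at 123.2, 119.1, 114.4 and 113.2 CPM and at 67.3, 64.7, 64.7 and 66.7 CPM. The gap between the oxygen groups was wide in both genotypes. Lrpprc fell by 1.07 ± 0.054 in control cells and by 0.83 ± 0.053 in MCT4-KO cells (edgeR adjusted p = 1.76e-13 and 9.21e-12), the largest falls of the 10 genes. In control cells 7.78% of all tested genes had a more negative change.

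SLIRP, the small RNA-binding partner of LRPPRC, went the other way. Slirp was at 31.4, 35.6, 33.0 and 30.2 CPM in control cells at 20% oxygen and at 38.4, 39.9, 46.3 and 35.6 CPM at 2%. Among MCT4-KO libraries it was at 28.2, 30.7, 29.9 and 30.7 CPM and at 45.2, 43.2, 42.5 and 44.5 CPM. The MCT4-KO groups did not overlap, while the control groups met at 35.6 CPM, where the lowest library at 2% is the replicate 4 that stood apart. Slirp rose by 0.30 ± 0.064 in control cells and by 0.55 ± 0.063 in MCT4-KO cells (edgeR adjusted p = 2.69e-04 and 1.08e-07), and without that library the control change was 0.35.

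The Slirp rise in control cells was lost when libraries were scaled by total counts instead of TMM (0.094, edgeR adjusted p = 0.188), and the MCT4-KO rise was then 0.37 and still called. TMM factors were 1.06 to 1.08 at 20% oxygen and 0.912 to 0.953 at 2%, and scaling by totals put the median of all genes at -0.22 (control) and -0.19 (MCT4-KO). Under it 3874 genes were higher and 7121 lower in control cells, against 5332 and 5458 with TMM, and in MCT4-KO cells 3797 were higher and 6942 lower, against 5189 and 5331. The 9 genes that fell in control cells kept their direction under both scalings. The 10 most abundant genes took 5.17% to 5.48% of the counts at 20% oxygen and 7.03% to 8.17% at 2%. Slirp also shares 2914 bases, 93.9% of its union exons, with Snw1 on the opposite strand, and 122 bases with Alkbh1. Snw1 did not pass the test between oxygen levels (0.021 and 0.043) and Alkbh1 fell (-1.59 and -1.41), so the Slirp value is uncertain for want of the strand setting. For the knockout Snw1 was lower at 20% oxygen (-0.14, edgeR adjusted p = 0.00587) and at 2% (-0.12, 0.00526). Alkbh1 was lower at 20% (-0.23, edgeR adjusted p = 0.00349) and was not called at 2% (-0.042). Neither passed the interaction of genotype and oxygen (0.023 and 0.18). The knockout and interaction values of Slirp are uncertain for the same reason.

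PGC-1β is the coactivator among the 10. Ppargc1b was at 7.26, 6.37, 7.82 and 8.32 CPM in control cells at 20% oxygen and at 6.18, 7.04, 6.27 and 5.81 CPM at 2%. In MCT4-KO cells it was at 8.87, 6.32, 7.50 and 7.27 CPM and at 6.30, 6.43, 7.12 and 7.39 CPM. The oxygen groups overlapped in both genotypes. The change of -0.23 ± 0.10 in control cells passed narrowly (edgeR adjusted p = 0.0454) and was lost in 6 of 8 other settings and in 9 of the 16 fits that leave out a library, among them those without control replicate 1, 3 or 4 at either oxygen level (adjusted p = 0.0573 to 0.158), MCT4-KO replicate 3 at either level or MCT4-KO replicate 4 at 20% (0.0514 to 0.0520). In MCT4-KO cells it did not pass (-0.13 ± 0.10, edgeR adjusted p = 0.245), except with scaling by totals (-0.31, 0.00968).

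**Figure D2:**
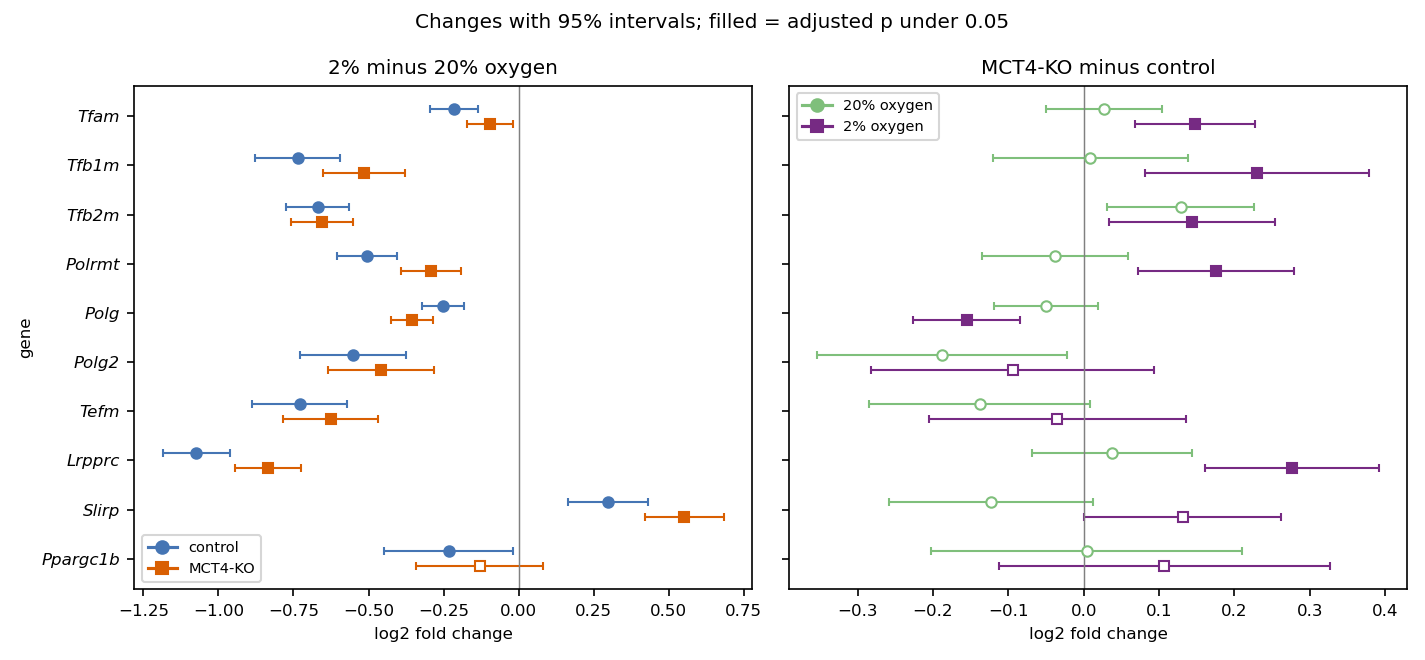
Log2 fold change (x axis) of each gene (y axis) between 2% and 20% oxygen, in control and MCT4-KO cells (left panel), and between MCT4-KO and control cells at each oxygen level (right panel). Bars are 95% intervals from the edgeR fit, and filled symbols have an adjusted p under 0.05. Slirp alone lies to the right of 0 on the left, and on the right 0 of 10 symbols are filled at 20% oxygen against 6 at 2%.

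Loss of MCT4 at 2% oxygen raised 5 of the 10 genes and lowered 1. Lrpprc, Tfb1m, Polrmt, Tfam and Tfb2m were higher in MCT4-KO cells by 0.14 to 0.28 on the log2 scale, and Polg was lower by 0.16. Over all tested genes 38.4% were called in this comparison, 19.4% higher and 19.1% lower. The median of the 10 genes was 0.14, beside -0.0040 over all genes tested. Scaling by totals, which gave 3437 genes higher and 2007 lower instead of 2671 and 2624, kept all 6 calls and added Slirp.

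Lrpprc had the largest difference, 0.28 ± 0.055 (edgeR adjusted p = 5.55e-04), with 64.7 to 67.3 CPM in MCT4-KO libraries against 51.0 to 59.3 CPM in control libraries. Tfb1m differed by 0.23 ± 0.071 (edgeR adjusted p = 0.0147), with 12.3 to 13.2 CPM against 10.6 to 11.7 CPM. Polrmt was at 29.4 to 31.7 CPM against 25.4 to 28.3 CPM, a difference of 0.18 ± 0.050 (edgeR adjusted p = 0.00850). These were the 3 genes whose MCT4-KO libraries all exceeded every control library, a separation that 18.5% of tested genes showed upwards, 18.5% downwards and 37% in all.

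Tfam differed by 0.15 ± 0.038 (edgeR adjusted p = 0.00438) although its groups met: control replicate 4, at 52.1 CPM, was above the lowest MCT4-KO library at 51.8 CPM. Without that control library the difference was 0.19 (edgeR adjusted p = 2.10e-04). The calls of Lrpprc, Tfb1m, Polrmt, Tfam and Polg held in all 8 other settings and in all 16 fits that leave out a library. Tfb2m differed by 0.14 ± 0.053 (edgeR adjusted p = 0.0372) with overlapping groups. Its call was lost in the DESeq2 Wald test (adjusted p = 0.0662), with no count filter (edgeR, 0.0804), and when any of control replicates 1 to 3 or MCT4-KO replicates 2 to 4 at 2% oxygen was left out (edgeR, 0.0561 to 0.104).

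Polg was lower by 0.16 ± 0.034 (edgeR adjusted p = 0.00125), with 71.7 to 77.8 CPM in MCT4-KO libraries against 82.1 to 85.4 CPM, and the groups did not overlap. Fanci, which overlaps it on the other strand, was higher by 0.28. Slirp differed by 0.13 ± 0.063 and did not pass (edgeR adjusted p = 0.105). Snw1, which overlaps Slirp on the other strand, was lower by 0.12. Without control replicate 3, the highest of its group, the Slirp difference was 0.21 and passed (edgeR adjusted p = 0.00638). Polg2 (-0.094 ± 0.090), Tefm (-0.035 ± 0.082) and Ppargc1b (0.11 ± 0.10) did not pass, with 95% intervals of -0.28 to 0.094, -0.21 to 0.14 and -0.11 to 0.33.

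At 20% oxygen none of the 10 genes passed for MCT4-KO against control, where 9.76% of tested genes did, 4.96% upwards and 4.8% downwards. None of the 10 was called in the other settings, the DESeq2 Wald test and limma-voom included. Those settings and the main fit each called between 1027 and 1432 genes. Tfb2m was at 29.6 to 32.6 CPM in MCT4-KO libraries and 27.5 to 29.5 CPM in control libraries, without overlap, a difference of 0.13 ± 0.047 (edgeR adjusted p = 0.0913). Polg2 was at 5.84 to 6.23 CPM against 6.53 to 7.20 CPM, also without overlap, a difference of -0.19 ± 0.079 (edgeR adjusted p = 0.154). Such separation was seen for 14.6% of tested genes, 7.68% upwards and 6.89% downwards. The other 8 genes lay between -0.14 for Tefm and 0.037 for Lrpprc, and the 95% interval of Lrpprc ran from -0.069 to 0.14.

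The difference between both knockout effects was tested as an interaction, the effect at 2% minus that at 20% oxygen. It passed for 3 of the 10 genes, each with a more positive knockout effect at 2% oxygen, beside 22.9% of all tested genes and 11.6% in that direction. Slirp had 0.25 ± 0.090 (edgeR adjusted p = 0.0475), Lrpprc 0.24 ± 0.075 (0.0264) and Polrmt 0.21 ± 0.068 (0.0279). These calls are fragile. Those of Lrpprc and Polrmt held in 7 of 7 other settings but in 10 and 9 of 16 fits that leave out a library, and that of Slirp in 4 of 7 and 3 of 16. The number of the 10 genes called fell to 0 without MCT4-KO replicate 3 at 20% oxygen, without control replicate 1 at 2% or without MCT4-KO replicate 1 at 2%, and to 1 when replicate 2 or 3 of control at 20%, replicate 2 or 4 of MCT4-KO at 20%, replicate 3 of control at 2% or replicate 2 of MCT4-KO at 2% was left out. Tfb1m (0.22 ± 0.095, edgeR adjusted p = 0.101) and Tfam (0.12 ± 0.053, 0.112) did not pass, though without control replicate 4 at 2% oxygen Tfam had 0.16 and passed (0.0140), while Slirp had 0.20 and did not (0.0834). Without control replicate 1 at 20% oxygen Tfb1m had 0.29 and passed (edgeR adjusted p = 0.0118).

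Related genes were counted from lists of mitochondrial gene expression, to be read beside the 39.6% of tested genes that were lower and the 38.7% that were higher at 2% oxygen in control cells. In control cells at 2% oxygen, 10 of 14 genes of mitochondrial DNA replication and the nucleoid fell and 3 rose (median -0.49). Those that fell included Primpol (-1.34 ± 0.065), the largest fall of the list, and Mgme1, a nuclease of replication intermediates (-1.22 ± 0.055). Those that rose included Endog (1.83 ± 0.080), the largest rise, and Lonp1, a matrix protease (0.79 ± 0.039). Twnk, the replicative helicase (-1.04 ± 0.054), and Ssbp1, the single-stranded DNA-binding protein (-0.87 ± 0.044), also fell. Of 19 genes of RNA processing and decay 12 fell and 2 rose (median -0.58), with Trmt10c, a subunit of the RNase P complex, at -0.95 ± 0.048 and Hsd17b10, its partner in that complex, at 0.48 ± 0.043 (0.27 with scaling by totals). Of 21 RNA modification genes 17 fell and 1 rose, led by Qtrt2, a subunit of the queuine tRNA-ribosyltransferase (-2.27 ± 0.064), and Mrm3, a ribosomal RNA methyltransferase (-1.90 ± 0.092).

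Of 17 translation factors 13 fell and 3 rose in control cells at 2% oxygen, with the elongation factor Tufm at 0.26 ± 0.040. With scaling by totals 14 fell and 1 rose, and Tufm was not called (0.052, edgeR adjusted p = 0.243). Of 5 termination factor genes 2 fell, among them Mterf3 (-1.26 ± 0.077), and 1 rose, against 4 and 0 with scaling by totals. Of 12 genes of nucleotide supply 6 fell and 5 rose (6 and 3 with scaling by totals), near the shares over all genes, from Rrm2b, a ribonucleotide reductase subunit (-2.68 ± 0.076), to Ak4, a mitochondrial adenylate kinase (3.18 ± 0.096). Among 17 tested regulators of mitochondrial biogenesis 11 fell and 2 rose. Pprc1, a relative of PGC-1β, had -1.60 ± 0.062 and Gabpb2, a subunit of GABP, -0.91 ± 0.045. Ppargc1a, the best-known relative of Ppargc1b, averaged 0.631 CPM and passed in no comparison. Genes of these lists that overlap others, such as Twnk with Mrpl43, Mgme1 with Snx5, Mterf3 with Ptdss1 and Pprc1 with Ldb1, are uncertain for the same reason as Slirp.

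In MCT4-KO cells at 2% oxygen against control, where 19.4% of tested genes were higher and 19.1% lower, 7 of 14 replication and nucleoid genes were higher and 1 lower, and 10 of 19 RNA processing genes were higher and 1 lower. Ssbp1 was higher by 0.27 ± 0.045, Dna2, a helicase and nuclease, by 0.26 ± 0.038, and Elac2, which cuts tRNA 3′ ends, by 0.46 ± 0.039. Of 17 translation factors 9 were higher and 1 lower, with Ptcd3, a protein of the small mitochondrial ribosomal subunit, at 0.48 ± 0.043. The nucleotide supply list had 5 lower and 0 higher of 12 (3 and 2 with scaling by totals), and the termination factors had 0 of 5 in either direction. RNA modification had 6 higher and 5 lower of 21, and the biogenesis regulators 3 higher, among them Pprc1 (0.51 ± 0.065) and Myc (0.43 ± 0.046), and 2 lower of 17, both near the shares over all genes. With scaling by totals RNA modification had 9 higher and 4 lower and the regulators 6 and 1. At 20% oxygen, where 9.76% of tested genes were called, these 7 lists held 1 gene higher and 7 lower in all. The interaction passed upwards for 11.6% of tested genes and downwards for 11.3%. It passed upwards for 5 of 14 replication genes, among them Twnk (0.43 ± 0.075), and for 7 of 19 RNA processing genes, with 0 downwards in both. The translation factors had 10 upwards and 2 downwards of 17, a total of 12 that was 7 without MCT4-KO replicate 3 at 2% oxygen. RNA modification had 5 upwards and 3 downwards of 21, nucleotide supply 2 and 2 of 12, the biogenesis regulators 2 and 2 of 17 and the termination factors 0 of 5.

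The genes encoded by the mitochondrial genome are the targets of this machinery. The libraries were poly(A)-selected, and the part of that step in their values was not tested. They took 0.750% ± 0.179 (SD, n = 4) of the counts in control libraries at 20% oxygen, 0.720% ± 0.0671 in those of MCT4-KO, and 0.298% ± 0.0442 (control) and 0.379% ± 0.0358 (MCT4-KO) at 2%. The difference between oxygen levels had p = 0.0286 in each genotype when library labels were permuted exactly (two-sided, n = 4 a group), the smallest value possible, and 0.0571 after Benjamini-Hochberg adjustment over the 4 comparisons. Between genotypes the groups overlapped, with an exact permutation p of 0.8286 at 20% oxygen and 0.0571 at 2% (adjusted 0.8286 and 0.0762), neither of which passed. Gene by gene, 15 of the 37 passed the count filter. In the edgeR fit 13 of these were lower and 1 higher at 2% oxygen in control cells, beside 39.6% and 38.7% of all tested genes. In MCT4-KO cells 13 were lower and 2 higher, beside 38.7% and 37.7%. For the knockout 9 were higher and 0 lower at 2% oxygen, beside 19.4% and 19.1%. At 20% it was 1 and 0, beside 4.96% and 4.8%. The rRNA mt-Rnr1, the substrate of TFB1M and singled out here after its values were seen, rose at 2% oxygen in control cells (0.82 ± 0.076) while Tfb1m fell.

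**Figure D3:**
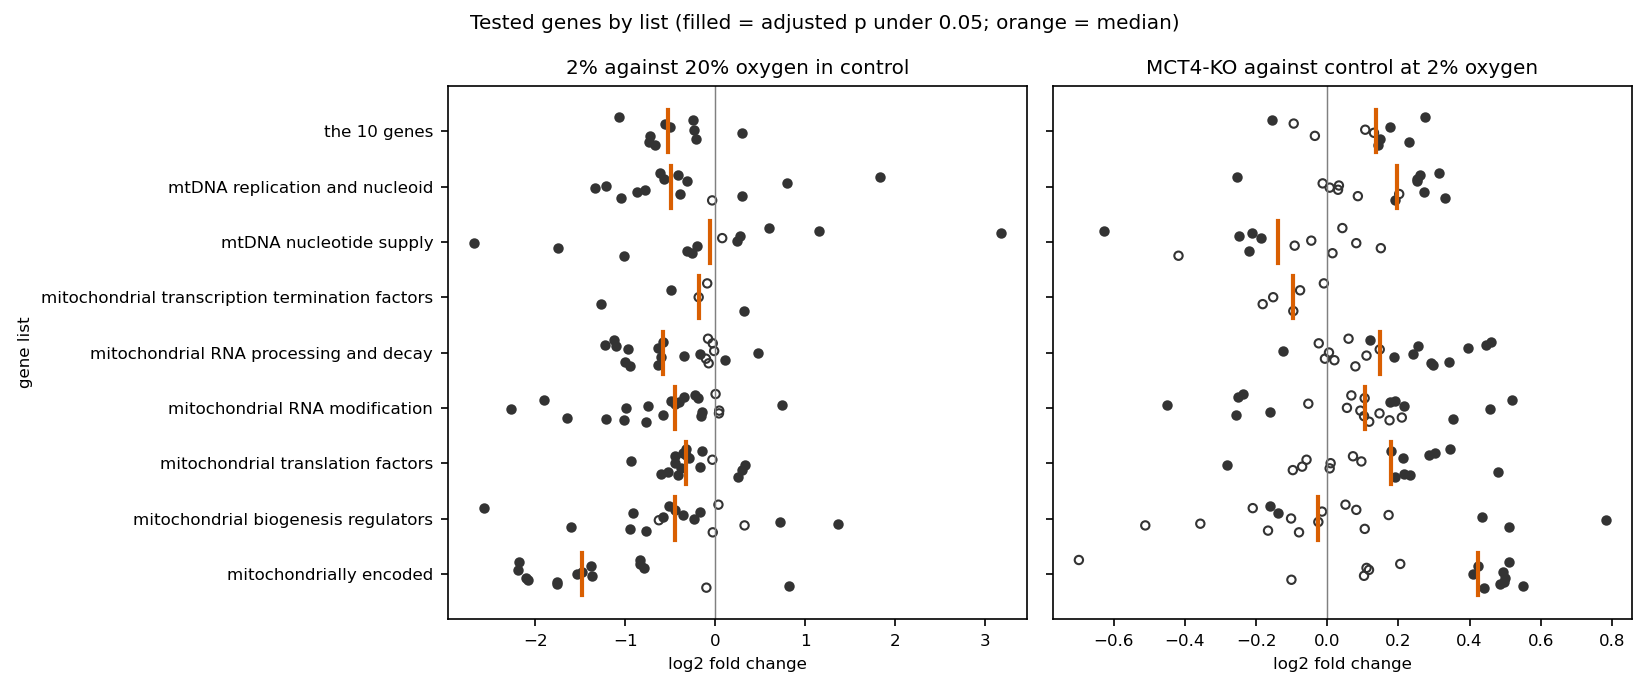
Log2 fold changes (x axis) of the tested genes of each list (y axis) at 2% against 20% oxygen in control cells (left) and in MCT4-KO against control cells at 2% oxygen (right). Each symbol is a gene, filled where the adjusted p is under 0.05, and orange lines are list medians. The median of the 10 genes is -0.53 on the left and 0.14 on the right, and mitochondrially encoded genes have medians of -1.48 and 0.42.

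Likeness of pattern was measured as the root mean square difference of log2 CPM, centred per gene, over the 16 libraries. Libraries share their oxygen level, so this follows the oxygen response in the main. Among the members the closest pair was Tfb1m and Tfb2m (0.109), the paralogs, and the farthest Lrpprc and Slirp (0.705), the partners of a single complex. Among genes averaging 3 or more in log2 CPM, 9064 or 9065 candidates per member, the closest to Lrpprc was Lars (0.059), the cytosolic leucyl-tRNA synthetase. Akap1 (0.072), an anchoring protein of the outer mitochondrial membrane, and Celf1 (0.074) followed. The next-closest genes of the other members are not named here. Tefm was closest to Rnaseh1 (0.062), the RNase that removes primers from DNA, and Slirp to Cox5b (0.073), a nuclear subunit of cytochrome c oxidase. Tfam was closest to Actl6a (0.039), Polrmt to Rbm38 (0.052), Polg to Gpatch2l (0.042), Polg2 to Fam219b (0.077) and Tfb1m to Atp13a1 (0.059). Tfb2m was closest to Kti12 (0.061) and Ppargc1b to Ercc2 (0.092), the loosest match of the 10.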

How the data were processed

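Poly(A) RNA of 16 libraries was sequenced, per the labels' protocols. The authors deposited expected counts (estimated counts) per gene as 1 table of 53801 Ensembl genes. The submitters' processing notes name HISAT2, RSEM and mm10. The sources used here do not give versions, annotation release or strand setting. Symbols and exons came from GENCODE vM21 (53706 identifiers matched, and the 95 others held 0.0103% of the counts).

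The 10.1% of values that were not whole were rounded. Genes were filtered with filterByExpr and scaled by TMM, and all 16 libraries were fitted with edgeR 4.0.16 in R 4.3.3 (biological coefficient of variation 4.61%, 12 residual degrees of freedom). Quasi-likelihood p-values received the Benjamini-Hochberg adjustment across all 13774 genes per comparison, and an adjusted p under 0.05 was called. SE is the log2 fold change divided by the square root of F. Levels are TMM-scaled CPM computed from the rounded counts. The fit was also run on simulated counts with known changes. Its recovery of changes as small as the knockout effects is not reported here. Alternatives were other scalings and filters, DESeq2 1.42.0, limma-voom (limma 3.58.1), a fit of the compared groups, a replicate block and leaving out each library. The longest transcript was the planned length alternative, and the longest CCDS transcript was chosen after seeing the data.

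The members and gene lists were chosen with earlier results of these data known. The text names all 10 members and Slc16a3, some of the up to 2 rises and 2 falls per list and comparison with the smallest adjusted p, and some of the 3 genes most like each member. Other genes were named outside this rule, among them Twnk and Ssbp1 for oxygen in control cells, and Ppargc1a. Protein sequences were not compared here.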

Additional observations from a re-analysis of the deposited data

Results flagged for a closer look

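The knockout effect differed between oxygen levels for 3 of the 10 genes by the interaction term of the edgeR fit, which passed for 22.9% of all tested genes and upwards for 11.6%. None of the 10 was called in 3 of the 16 fits that leave out a library, and Slirp was called in 3 of the 16, Polrmt in 9 and Lrpprc in 10. For Polrmt the difference was 0.21 on the log2 scale, with -0.038 at 20% oxygen and 0.18 at 2%. For Lrpprc it was 0.24, from 0.037 to 0.28, and for Slirp 0.25, from -0.12 to 0.13. The Slirp values are uncertain without the strand setting. Of these 6 single effects, Polrmt and Lrpprc at 2% oxygen passed the test. In the 40 sets of 4 libraries, each a gene in a group, 0 held a library whose gap to the nearest other exceeded Dixon's limit for 4 values.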

How the results depend on the processing

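Of 1190 values for the 10 genes under alternatives, 1110 kept direction and side of the threshold, 59 lost a call, 6 gained one and 15 changed sign, all of them among values not called. Sign changes outside the fits that leave out a library were Ppargc1b for the knockout at 20% oxygen with limma-voom (-0.0025) and Tefm for the knockout at 2% with scaling by totals (0.0052). Leaving out libraries gave -0.081 to 0.079 for Ppargc1b, -0.058 to 0.057 for Tfb1m and -0.063 to 0.0019 for Polrmt (knockout at 20%), -0.092 to 0.016 for Tefm (knockout at 2%) and -0.011 to 0.055 for the Tfb2m interaction. Ptcd2, a gene of RNA processing, went from 0.11 to -0.093 in control cells at 2% oxygen with scaling by totals.

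Without a library, the knockout at 20% oxygen had 895 to 1699 genes called (lowest without MCT4-KO replicate 2), the interaction 0 to 4 of the 10 genes, and the mitochondrially encoded share differed by -0.077 to 0.049 points (20%) and 0.062 to 0.097 points (2%, exact p = 0.0571 with all libraries; without MCT4-KO replicate 4 it was 0.0286, the smallest value possible, and otherwise 0.0571 to 0.114). The cause was not tested.

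Replicate numbers did not pair the libraries: 1 of 24 same-numbered pairs had a correlation of deviations above 0.1 (-0.064 to 0.12), and 12 of 48 comparisons with another group were best with the own number. A block for the number gave 1059 genes called instead of 1344 for the knockout at 20% oxygen. Under the block, Tfb2m at 2% (0.14, edgeR adjusted p = 0.0570), Ppargc1b with oxygen in control cells (-0.23, 0.0565) and the Slirp interaction (0.26, 0.0527) were not called, and no other call of the 10 genes changed. Depth limits Polg2 and Ppargc1b most.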
